A study of Homo sapiens with 9 samples.

Results

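DHRS2, TREX2, FRY, ACTR5 and SURF2 are 5 genes whose transcripts were lower in A2780 cells, a human ovarian carcinoma line, after a platinum drug. They were chosen by their large falls against DMSO in the libraries of Pt-ttpy or of cisplatin, and all 5 of the 24542 genes and loci in the count table passed the filter on low counts that left 15558 for testing. The groups were cells treated for 96 h with 5.5 µM Pt-ttpy, cells treated for 96 h with 0.6 µM cisplatin (the labels write Cispt) and cells given 0.5% DMSO for 96 h, each with 3 libraries labelled as biological replicates. All came from the same wild-type line, and each drug was given at its IC80, while DMSO is the solvent control. Separate cultures are not mentioned in the labels, so p-values may measure only technical spread.

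The 5 genes belong to separate processes. DHRS2 encodes a short-chain dehydrogenase/reductase of mitochondria and nucleus that reduces dicarbonyls with NADPH and has been reported to bind MDM2. TREX2 encodes a DNA exonuclease that removes bases from the 3′ end, the relative of TREX1. FRY encodes a very large scaffold protein. Its Drosophila counterpart, furry, works with an NDR kinase. ACTR5 encodes an actin-related subunit of INO80, a complex that moves nucleosomes at promoters and at sites of DNA damage. SURF2 lies in the surfeit cluster of tightly packed housekeeping genes and encodes a nucleolar protein reported to bind the free 5S ribonucleoprotein, the particle that holds back MDM2 when ribosome assembly fails. The members were grouped as lying outside known pathways, but DHRS2 and SURF2 thus both have reported links to MDM2.

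The promoters show how different the genes are at their start sites. They are printed because the series title describes Pt-ttpy as a G-quadruplex binder, and a run of guanines near the start would be the letters to look for. The RefSeq table of GRCh38.p14 held 4 of the 5 members, and SURF2 was the missing entry. Each window runs from 250 bases before to 50 bases after the start, 5′ to 3′ on the strand of the gene. The RefSeq starts of TREX2, FRY and ACTR5 lie inside the GENCODE genes, whose bounds begin further upstream, only slightly so for ACTR5. Capitals mark matches, on either strand, to the TATA box TATAAA, the inverted or direct CCAAT box and the GC box GGGCGG, or to 4 runs of GGG separated by gaps of 1 to 7 N.
DHRS2, chr14:23629865-23630164, plus strand: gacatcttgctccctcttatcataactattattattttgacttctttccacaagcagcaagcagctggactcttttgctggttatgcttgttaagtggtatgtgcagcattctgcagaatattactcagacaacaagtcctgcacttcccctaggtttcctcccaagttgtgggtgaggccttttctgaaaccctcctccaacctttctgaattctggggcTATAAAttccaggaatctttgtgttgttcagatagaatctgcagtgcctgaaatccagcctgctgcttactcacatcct
TREX2, chrX:153446007-153446306, minus strand: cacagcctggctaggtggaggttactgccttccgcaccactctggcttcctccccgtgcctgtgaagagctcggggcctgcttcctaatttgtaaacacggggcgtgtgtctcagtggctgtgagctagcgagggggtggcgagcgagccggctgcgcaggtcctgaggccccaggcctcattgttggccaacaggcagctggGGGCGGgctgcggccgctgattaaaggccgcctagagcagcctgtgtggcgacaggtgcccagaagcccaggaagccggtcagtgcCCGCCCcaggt
FRY, chr13:32031524-32031823, plus strand: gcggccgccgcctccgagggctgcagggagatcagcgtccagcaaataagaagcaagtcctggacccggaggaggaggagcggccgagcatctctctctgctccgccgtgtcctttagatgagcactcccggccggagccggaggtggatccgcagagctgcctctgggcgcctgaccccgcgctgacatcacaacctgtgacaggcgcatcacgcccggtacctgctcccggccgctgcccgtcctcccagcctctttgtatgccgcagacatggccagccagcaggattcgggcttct
ACTR5, chr20:38748210-38748509, plus strand: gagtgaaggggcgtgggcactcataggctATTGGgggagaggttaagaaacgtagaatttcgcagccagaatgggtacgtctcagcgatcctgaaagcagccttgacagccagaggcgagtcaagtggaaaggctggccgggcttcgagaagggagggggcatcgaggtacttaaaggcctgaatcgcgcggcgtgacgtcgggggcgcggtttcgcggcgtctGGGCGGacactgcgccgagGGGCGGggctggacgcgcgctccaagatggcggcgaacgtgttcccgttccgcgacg

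None of the 4 windows held the motif of 4 guanine runs, which 24.9% of the 35116 promoter windows in the table held. DHRS2 had a TATAAA from -29 to -24, counting the start as 0, a motif in 11.5% of all windows. Its window was 44% GC. The other windows were richer in G and C, at 66% for TREX2, 66.7% for FRY and 63.7% for ACTR5. GGGCGG was present in 45% of all windows, with 2 matches each in TREX2 and ACTR5. ACTR5 also held a CCAAT on the opposite strand, which 34.6% of windows held. FRY held none of the 4 motifs. The matches do not overlap each other, and they describe these letters only.

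Library totals ranged from 31.3 to 40.8 M counts. DMSO 2 and cisplatin 2 stood apart from the other 7 libraries. Over 13383 genes, the deviation of a library from the mean of all libraries rose with transcript GC content in these libraries (Spearman rho 0.43 in cisplatin 2 and 0.54 in DMSO 2), and rho lay between -0.36 and -0.18 in the rest. Of the 10 markers fixed for the carcinoma line only VIM was high, at 6080 CPM (counts per 1e6 counts of the TMM-scaled library) with Pt-ttpy, 7050 with cisplatin and 5340 with DMSO. KRT8, EPCAM, PAX8 and MUC16 were at or below 1.78 CPM in every library, and KRT18 did not exceed 0.0563 CPM, so these transcripts do not mark the cells as epithelial. The summed leukocyte, endothelial and erythroid markers did not exceed 0.773 CPM in any library. The 5 fibroblast markers, led by DCN and LUM, summed to 777 to 842 CPM with Pt-ttpy, 618 to 744 with cisplatin and 401 to 504 with DMSO. COL1A1 and COL1A2 in that list stayed at or below 14.3 CPM. That sum moved with the treatments, in the opposite direction to the 5 genes, and its part in their values was not tested. In these bulk libraries fewer cells with a transcript and less of it per cell cannot be told apart.

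All 5 genes were lower than DMSO in every library of both drugs. All 5 had each Pt-ttpy library below each DMSO library, an ordering seen in 20.6% of all genes tested, and all 5 had each cisplatin library below each DMSO library, against 19.4% of all genes. These orderings follow from how the genes were chosen and are given as a description, with no test. The median log2 change of the 5 was -1.14 with Pt-ttpy and -1.24 with cisplatin, beside 0.03 and 0.01 over all genes tested. A log2 change of -0.90 or lower was found in 1.57% of genes with Pt-ttpy and 1.59% with cisplatin. The places that follow describe the falls that chose the genes. By log2 change among genes with at least 5 CPM in the higher group, which DHRS2, TREX2 and FRY reach through DMSO alone in the Pt-ttpy contrast, TREX2 was 2nd from the bottom of 10676 genes with Pt-ttpy, SURF2 the 8th, FRY the 11th, DHRS2 the 12th and ACTR5 the 31st. With cisplatin the places among 10758 genes were the 5th for TREX2, the 9th for DHRS2, the 10th for ACTR5, the 25th for SURF2 and 1319 for FRY. In that contrast DHRS2 and TREX2 again reach 5 CPM through DMSO alone. No size of fall was set for membership.

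**Figure D1:**
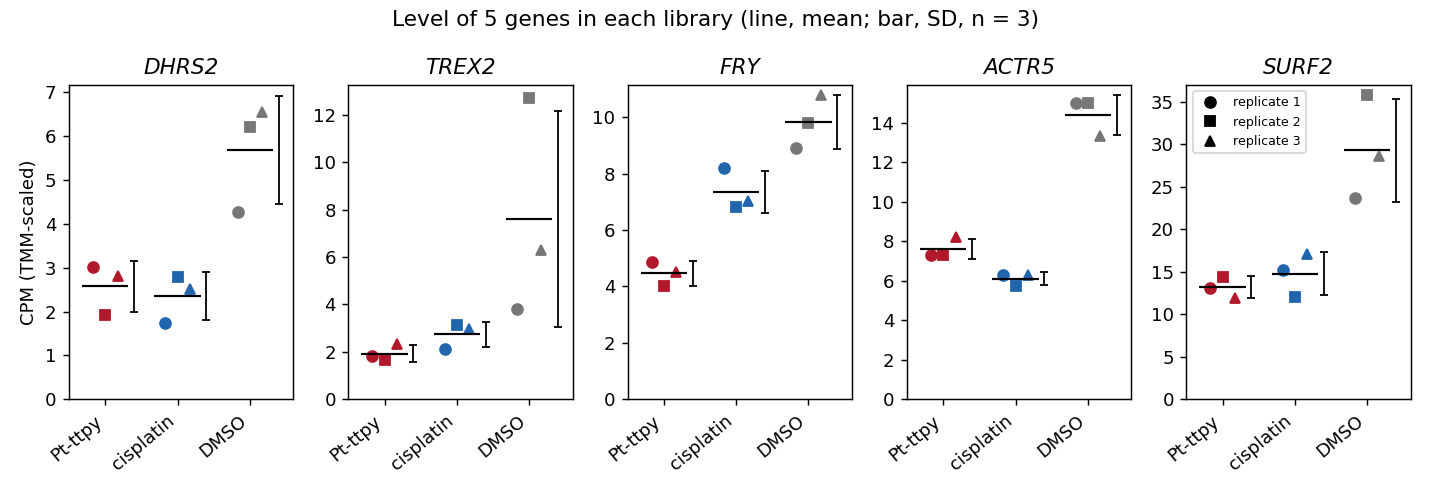
Level of each of the 5 genes (vertical axis, CPM scaled with TMM factors, starting at 0) in the 3 libraries of Pt-ttpy, cisplatin and DMSO. Points are libraries with the shape giving the replicate number, lines are group means and bars are SD (n = 3). DMSO libraries lie above all treated libraries in each panel, DMSO 2 stands high for TREX2 at 12.7 CPM, and FRY is the gene in which cisplatin lies between Pt-ttpy and DMSO with no overlap.

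DHRS2, the reductase, had 3.02, 1.92 and 2.81 CPM in the 3 Pt-ttpy libraries, 1.74, 2.79 and 2.52 CPM in the cisplatin libraries and 4.28, 6.21 and 6.56 CPM in the DMSO libraries. Both drugs left it at a similar low level, and DMSO 1 was the lowest control. The counts behind these values were 68 to 98 with Pt-ttpy, 54 to 118 with cisplatin and 152 to 263 with DMSO, among the lowest of the 5 genes together with those of TREX2. The fitted log2 change was -1.14 (SE 0.28) for Pt-ttpy against DMSO and -1.27 (SE 0.28) for cisplatin against DMSO. Between the drugs it was 0.13 (SE 0.28) for Pt-ttpy against cisplatin, with overlapping libraries, and -0.04 without cisplatin 1. The gene (ENSG00000100867) lies on chromosome 14 from 23630115 to 23645639 (GRCh38, GENCODE 29), and its exons share no position with another annotated gene.

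TREX2, the exonuclease, had the largest fitted falls of the 5 with either drug and the least even controls. It had 1.82, 1.64 and 2.34 CPM with Pt-ttpy, 2.13, 3.13 and 2.96 CPM with cisplatin and 3.83, 12.7 and 6.29 CPM with DMSO. The groups of treated and control libraries did not overlap, but DMSO 2 was over 3 times DMSO 1, and the controls had a coefficient of variation of 60%. The fitted log2 change was -1.97 (SE 0.39) for Pt-ttpy and -1.47 (SE 0.38) for cisplatin. Without DMSO 2 these values were -1.39 and -0.88. The transcript has a GC content of 62.7%, higher than 91.1% of tested genes, and DMSO 2 is the control library in which counts rose with GC content. The part of that trend in the TREX2 value was not tested. Between the drugs the change was -0.51 (SE 0.38) for Pt-ttpy against cisplatin, with overlapping libraries.

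TREX2 (ENSG00000183479; chromosome X, 153444720 to 153470587, minus strand) shares 1414 bases, 52.1% of its annotated exon positions, with HAUS7 on the same strand. Reads in those positions cannot be assigned to either gene with certainty. HAUS7, an augmin subunit that helps microtubules branch in the spindle, had 16.9, 19.7 and 17.8 CPM with Pt-ttpy, 21.2, 13.5 and 20.6 with cisplatin and 21.2, 24.9 and 23.6 with DMSO. It was not called by edgeR with Pt-ttpy (log2 -0.36, SE 0.17, adjusted p = 0.187) or with cisplatin (-0.34, SE 0.17, 0.183). Without DMSO 2 and cisplatin 2 it was called with Pt-ttpy (-0.30, 0.0331) and not with cisplatin (-0.10, 0.578). TREX2 made up 7.66% to 11.6% of the counts of both genes with Pt-ttpy, 9.1% to 18.8% with cisplatin and 15.3% to 33.7% with DMSO. The share with cisplatin therefore overlapped that with DMSO, and the share with Pt-ttpy did not. These shares rest on the same TREX2 counts whose fall chose the gene, so they are a description with no test. TREX1, the paralog, was at or below 0.119 CPM in every library, but all of its annotated exon positions lie within exons of ATRIP, so its level is uncertain.

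**Figure D2:**
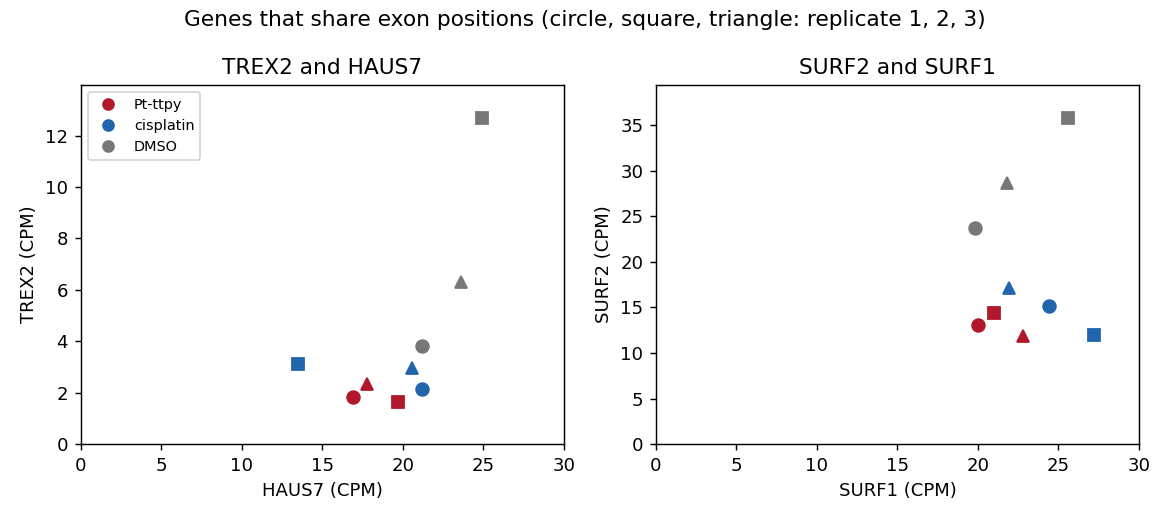
Level of TREX2 against HAUS7 and of SURF2 against SURF1 (both axes in CPM, starting at 0), pairs that share exon positions. Each point is a library, coloured by group, with the shape giving the replicate number. SURF1 overlaps between all groups, the HAUS7 libraries of Pt-ttpy (16.9 to 19.7 CPM) lie below those of DMSO (21.2 to 24.9 CPM), and both members lie lower in treated than in DMSO libraries.

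FRY, the scaffold, was lower with Pt-ttpy than with cisplatin in every library. It had 4.86, 4.0 and 4.5 CPM with Pt-ttpy, 8.21, 6.82 and 7.03 CPM with cisplatin and 8.89, 9.79 and 10.8 CPM with DMSO. The 3 groups did not overlap, with cisplatin close below DMSO and Pt-ttpy well below both. The fitted log2 change was -1.14 (SE 0.18) for Pt-ttpy and -0.42 (SE 0.17) for cisplatin. For Pt-ttpy against cisplatin it was -0.72 (SE 0.18), and 10.1% of all genes tested had each Pt-ttpy library below each cisplatin library. That difference has no test here, because both drugs' values entered the choice of the genes. FRY (ENSG00000073910; chromosome 13, 31846713 to 32299122) has 18849 bases of annotated exon, the most of the 5. It shares 4.1% of them with the pseudogene EEF1DP3 and 1% with FRY-AS1, neither of which has a row in the table.

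ACTR5, the INO80 subunit, had the tightest replicates. It had 7.32, 7.3 and 8.21 CPM with Pt-ttpy, 6.31, 5.71 and 6.31 CPM with cisplatin and 15.0, 15.0 and 13.3 CPM with DMSO. The coefficient of variation was 6.79%, 5.71% and 7.05% in that order, and cisplatin lay below Pt-ttpy with no overlap. The share of all genes with that ordering of the drugs was not counted. The fitted log2 change was -0.92 (SE 0.15) for Pt-ttpy and -1.24 (SE 0.15) for cisplatin, with 0.32 (SE 0.15) for Pt-ttpy against cisplatin. The order of the drugs was thus opposite to that in FRY. This is a description with no test, because both drugs' values entered the choice of the genes. ACTR5 (ENSG00000101442) lies on chromosome 20 from 38748442 to 38772520 and shares no exon position with another annotated gene.

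SURF2, the nucleolar protein, was the most abundant of the 5. It had 13.1, 14.4 and 11.9 CPM with Pt-ttpy, 15.2, 12.0 and 17.1 CPM with cisplatin and 23.7, 35.8 and 28.6 CPM with DMSO. Treated libraries lay well below the controls and the drugs overlapped. The fitted log2 change was -1.16 (SE 0.18) for Pt-ttpy and -0.99 (SE 0.18) for cisplatin, and -0.17 (SE 0.18) for Pt-ttpy against cisplatin. DMSO 2 was the highest control and cisplatin 2 the lowest cisplatin library. The fitted change for cisplatin was -0.69 without both. The transcript GC content of 60.8% exceeded that of 86.4% of tested genes, and the part of the GC trend in these values was not tested.

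SURF2 (ENSG00000148291; chromosome 9, 133356552 to 133361169, plus strand) starts head to head with SURF1, on the opposite strand. SURF1, an assembly factor of cytochrome c oxidase, had 20.0, 21.0 and 22.8 CPM with Pt-ttpy, 24.4, 27.2 and 21.9 CPM with cisplatin and 19.8, 25.6 and 21.8 CPM with DMSO. Its groups overlapped, and it was not called with Pt-ttpy (log2 -0.07, SE 0.14, adjusted p = 0.768) or cisplatin (0.13, SE 0.14, 0.537). SURF2 made up 34.3% to 40.7% of the counts of the pair with Pt-ttpy, 30.6% to 43.9% with cisplatin and 54.4% to 58.3% with DMSO. The share in treated libraries therefore did not overlap that in controls. It rests on the same SURF2 counts whose fall chose the gene, so it is a description with no test. The genes share 119 exon bases, 11.8% of SURF2's, and the strandedness of the counting is not given in the sources used here.

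Per length the 5 genes stood in another order than by CPM. In CPM per kilobase of annotated exon, SURF2 averaged 13.1 with Pt-ttpy, 14.7 with cisplatin and 29.1 with DMSO. ACTR5 averaged 2.97, 2.38 and 5.62 in the same order of groups, and TREX2 0.711, 1.01 and 2.8. DHRS2 averaged 0.342, 0.311 and 0.752, and FRY 0.236, 0.39 and 0.521. SURF2, ACTR5 and TREX2 kept this order in all groups. FRY lay below DHRS2 with Pt-ttpy and DMSO and above it with cisplatin. The exon lengths count every annotated transcript, so a gene that uses few of its exons is understated.

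**Figure D3:**
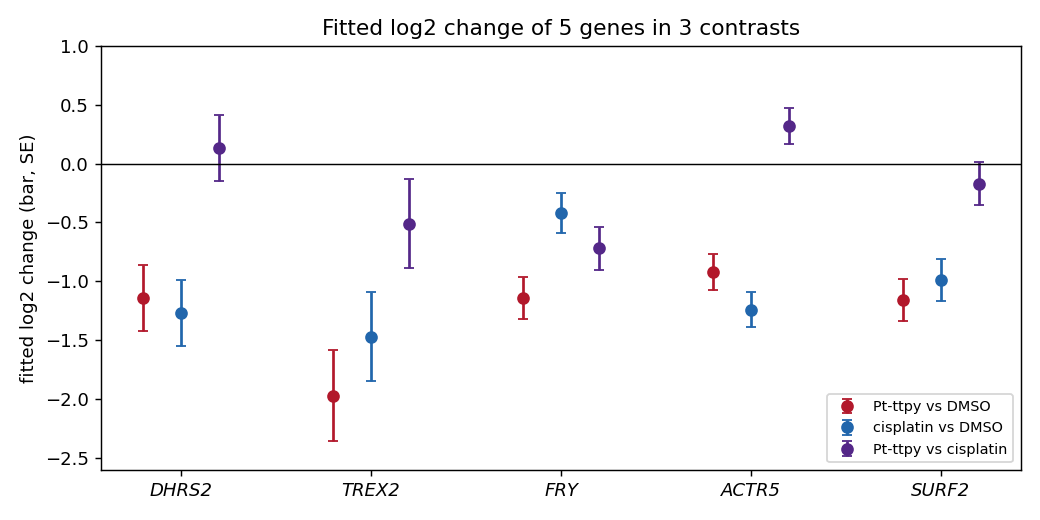
Fitted log2 change (vertical axis, bars are SE) of the 5 genes for Pt-ttpy against DMSO, cisplatin against DMSO and Pt-ttpy against cisplatin. All changes against DMSO are below 0, the Pt-ttpy and cisplatin contrasts share the DMSO libraries, and FRY (-0.72) and ACTR5 (0.32) lie on opposite sides of 0 between the drugs.

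Across the 9 libraries the genes most like each member by Pearson's r of log2(CPM + 1) were ranked among 10587 genes with a mean of at least 5 CPM. These r values are descriptions over libraries that fall into treated and control clusters, so any gene that is lower with both drugs scores high. ACTR5 was most like PRKCA (r = 0.996) and DNAJB11 (0.99). SURF2 was most like YWHAH (0.992), DTNBP1 (0.989) and UBE2Q1 (0.989). TREX2 was most like TSR3 (0.993), KIF1C (0.99) and SLC25A23 (0.989). DHRS2 was most like SRRD (0.958), TRAPPC10 (0.957) and WDR20 (0.951), and FRY was most like RRAGC (0.941), NDUFAF8 (0.939) and DERL2 (0.931). After group means were taken out, r fell to between 0.18 and 0.54 for the genes nearest FRY. It stayed between 0.97 and 0.98 for those nearest TREX2, whose spread within groups is largely that of DMSO 2. Among the members themselves the highest r was 0.89 for TREX2 with SURF2 and the lowest 0.59 for FRY with ACTR5, and with group means taken out the values were 0.56 and -0.12.

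The relatives and partners of the 5 genes did not enter the rule for the members and were tested, but their lists were drawn up with earlier results of these data known, so their calls are not independent evidence. Of 88 genes in 8 lists, 81 were tested. With Pt-ttpy 2 were higher, 7 lower and 72 not called, which is 11.1% called beside 12.0% of all genes (5.59% higher and 6.45% lower). With cisplatin 7 were higher, 13 lower and 61 not called, which is 24.7% beside 20.5% of all genes (10.7% higher and 9.78% lower). Between the drugs MDM2 alone was called, beside 0.514% of all genes (0.0578% higher and 0.456% lower). Scaling moved the split of all called genes: with upper-quartile factors 1050 were higher and 666 lower with Pt-ttpy, against 870 and 1004 with TMM, and 1940 higher and 913 lower with cisplatin, against 1669 and 1521. With library totals the cisplatin split was 1995 and 943, and that of Pt-ttpy 1005 and 773. The Pt-ttpy count was 1, the gene DHRS3, without any one of Pt-ttpy 1, 2 or 3, and 17 without cisplatin 2. The cisplatin count was 13 without DMSO 3, Pt-ttpy 1 or Pt-ttpy 3, and 12 without Pt-ttpy 2 or cisplatin 2.

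Of 14 tested enzymes and proteins around DHRS2, 1 was higher with Pt-ttpy (median 0.07) and 4 were higher with cisplatin (median 0.00), with 0 lower. MDM2 is among those 4. That is 7.14% called with Pt-ttpy beside 12.0% of all genes, and 28.6% with cisplatin beside 20.5%. The gene neighbours and closest listed paralogs DHRS4 (log2 0.01 with Pt-ttpy, adjusted p = 0.964) and DHRS4L2 (-0.22, 0.465) were not called, nor were they with cisplatin (0.99 and 0.6). DHRS3, which reduces retinaldehyde, was near silent in controls. It had 29, 22 and 29 counts with Pt-ttpy, 48, 104 and 84 counts with cisplatin and 0, 3 and 2 counts with DMSO. Per library total the summed counts were 18.2 times DMSO with Pt-ttpy (95% exact interval 7.47 to 57.5, counting error only) and 52 times with cisplatin (22 to 162). The adjusted p was 0.00688 with Pt-ttpy and 0.0004 with cisplatin, kept whichever library was left out. DHRS12, another relative, rose with cisplatin (1.27, SE 0.28, adjusted p = 0.0099) and was not called with Pt-ttpy (0.64, 0.143). Its exons share 18.4% of their positions with an unnamed gene. MYB, reported to switch on DHRS2, was not called with either drug (-0.24 and 0.689 with Pt-ttpy, -0.97 and 0.0722 with cisplatin).

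MDM2, the ubiquitin ligase that DHRS2 and the 5S particle are reported to meet, separated the drugs. It had 174, 179 and 166 CPM with Pt-ttpy, 367, 258 and 330 CPM with cisplatin and 152, 114 and 160 CPM with DMSO. It rose with cisplatin (log2 1.17, adjusted p = 0.000641) and was not called with Pt-ttpy (0.29, 0.212). Pt-ttpy against cisplatin was itself called (-0.88, adjusted p = 0.0241), a call lost without any one Pt-ttpy library, cisplatin 1 or cisplatin 3 (highest adjusted p = 0.159). Without DMSO 2 and cisplatin 2 together, Pt-ttpy against DMSO was called for MDM2 (0.16, 0.0334).

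In the INO80 complex 2 of 14 subunits were lower with Pt-ttpy (median -0.18) and 4 of 14 with cisplatin (median -0.24), with 0 higher. That is 14.3% called with Pt-ttpy beside 12.0% of all genes, and 28.6% with cisplatin beside 20.5%. Of all genes 6.45% were lower with Pt-ttpy and 9.78% with cisplatin. MCRS1 had 53.7, 59.2 and 58.9 CPM with Pt-ttpy, 60.6, 51.0 and 59.3 CPM with cisplatin and 80.2, 107 and 81.9 CPM with DMSO. It fell with Pt-ttpy (-0.65, adjusted p = 0.0139) and with cisplatin (-0.65, 0.00669). RUVBL2, an ATPase shared with other complexes, fell by 0.43 (0.0435) and 0.47 (0.0225). INO80E fell with cisplatin (-0.44, 0.0286; 18.8% of its exon positions lie under HIRIP3), and so did NFRKB (-0.41, 0.0359). The NFRKB call was not examined with libraries left out. The ATPase INO80 itself (-0.13, 0.462 with Pt-ttpy; -0.25, 0.127 with cisplatin), the actin-related partner ACTR8 (-0.21, 0.204; -0.28, 0.0861) and RUVBL1 (-0.26, 0.143; -0.20, 0.211) were not called. The fall of ACTR5 was larger than that of every other subunit tested, the lowest of which was -0.65 with each drug, but ACTR5 was chosen for its fall. Of 9 actin-related proteins 1 was lower with each drug, ACTR1A of the dynein partner dynactin (-0.60, 0.0154 with Pt-ttpy; -0.46, 0.0248 with cisplatin). That is 11.1% of the 9 with each drug, beside 12.0% and 20.5% of all genes. The Pt-ttpy calls of MCRS1 and ACTR1A were lost without any one Pt-ttpy library (highest 0.0722 and 0.0793) and that of RUVBL2 without any library but DMSO 1 or cisplatin 2 (highest 0.157). The Pt-ttpy call of RUVBL2 was also lost with library totals, upper-quartile factors, limma-voom and the 6 libraries of that contrast. The cisplatin calls of RUVBL2, INO80E and ACTR1A were lost in a fit on the 6 libraries of that contrast, that of INO80E also with library totals or upper-quartile factors, and that of ACTR1A with upper-quartile factors. With 1 library left out, cisplatin calls were lost for RUVBL2 without cisplatin 1, for ACTR1A without cisplatin 1 or 3, and for INO80E without DMSO 1, DMSO 2, Pt-ttpy 2, cisplatin 2 or cisplatin 3. Without DMSO 2 and cisplatin 2 together, ACTR8 was called lower with both drugs (-0.22, 0.0465 and -0.31, 0.0133) and RUVBL1 with Pt-ttpy (-0.15, 0.0252).

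Around SURF2, 1 of 5 other surfeit genes was lower with each drug (medians -0.27 and -0.17). That is 20.0% called, beside 12.0% of all genes with Pt-ttpy and 20.5% with cisplatin. SURF4, a cargo receptor of the endoplasmic reticulum whose end lies 280 bases from SURF2, had 351, 363 and 363 CPM with Pt-ttpy, 352, 314 and 366 CPM with cisplatin and 432, 582 and 436 CPM with DMSO. It fell by 0.43 with Pt-ttpy (adjusted p = 0.0381) and 0.49 with cisplatin (0.0157), with DMSO 2 again the highest library. SURF6, a nucleolar protein, had -0.38 (0.0638) and -0.31 (0.0907), the mediator subunit MED22 -0.27 (0.14) and -0.17 (0.325), and the ribosomal protein RPL7A 0.00 (0.986) and 0.16 (0.373). The Pt-ttpy call of SURF4 was lost without any one Pt-ttpy library, DMSO 2, cisplatin 1 or cisplatin 3 (highest 0.133), and with upper-quartile factors (0.0601). Its cisplatin call was kept whichever library was left out, but was lost in a fit on the 6 libraries of that contrast (0.0661). Without DMSO 2 and cisplatin 2 together SURF6 was called lower with Pt-ttpy (-0.27, 0.00257).

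Of 9 genes listed for the 5S ribonucleoprotein and its assembly, a list that includes MDM2, 1 was higher and 2 lower with Pt-ttpy (median -0.13). With cisplatin 3 were higher, MDM2 among them, and 2 lower (median -0.25). That is 33.3% called with Pt-ttpy beside 12.0% of all genes, and 55.6% with cisplatin beside 20.5%. NOP53, which acts late in large-subunit maturation, rose by 0.64 (adjusted p = 0.0295) with Pt-ttpy and by 0.87 (0.00584) with cisplatin. RRS1, which brings the 5S particle into the pre-ribosome, fell by 0.57 (0.0234) and 0.60 (0.0118), and 11.4% of its exon positions are shared with another gene. HEATR3, a carrier of RPL5, fell by 0.52 (0.0305) and 0.72 (0.00541). RPL5 rose with cisplatin (0.32, 0.0299) and was not called with Pt-ttpy (0.24, 0.0984), and RPL11 was not called with either (0.527 and 0.142). All 3 Pt-ttpy calls were lost without any one Pt-ttpy library. That of NOP53 was also lost without DMSO 1 or 3, that of HEATR3 without DMSO 2 or 3, and that of RRS1 without DMSO 2. How the cisplatin calls of RRS1 and RPL5 depend on single libraries was not examined.

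Around TREX2 and FRY more calls came with cisplatin than with Pt-ttpy, as over all genes tested (20.5% against 12.0%). Of 10 tested genes of nucleic-acid clearance and sensing 0 were called with Pt-ttpy by edgeR (1 at an unadjusted p under 0.05). With cisplatin 1 was called (10.0%), the RNA editor ADAR (-0.28, 0.0349). Of 8 augmin subunits 0 were called with Pt-ttpy (2 at an unadjusted p under 0.05). With cisplatin 3 of the 8 were called, 37.5% beside 20.5% of all genes: HAUS4 was higher (0.45, 0.0493; 30.9% of its exon positions are shared with another gene), and HAUS2 (-0.37, 0.0376) and HAUS8 (-0.40, 0.0428) were lower. These 4 cisplatin calls were each lost without most single libraries (7 to 9 of 9). Of 15 genes of the NDR and Hippo kinases NF2, the merlin tumour suppressor, was lower with Pt-ttpy (-0.53, 0.0154) and with cisplatin (-0.54, 0.00774), and the kinase STK4 with cisplatin (-0.42, 0.0375). These calls are 6.67% of the 15 with Pt-ttpy and 13.3% with cisplatin, beside 12.0% and 20.5% of all genes. FRYL, the paralog of FRY, was not called (0.22, 0.5 with Pt-ttpy; -0.13, 0.693 with cisplatin). The NDR kinases STK38 (0.13, 0.42; 0.03, 0.86) and STK38L (0.14, 0.653; -0.07, 0.815) were not called either. The Pt-ttpy call of NF2 was lost without any one Pt-ttpy library (highest 0.0769), and the STK4 call without DMSO 1, DMSO 3, any one Pt-ttpy library or cisplatin 2. The cisplatin calls of ADAR, HAUS2, HAUS8 and STK4 were also lost with library totals or upper-quartile factors in place of TMM, and those of ADAR, HAUS2, HAUS4, HAUS8 and STK4 in a fit on the 6 libraries of that contrast.

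**Figure D4:**
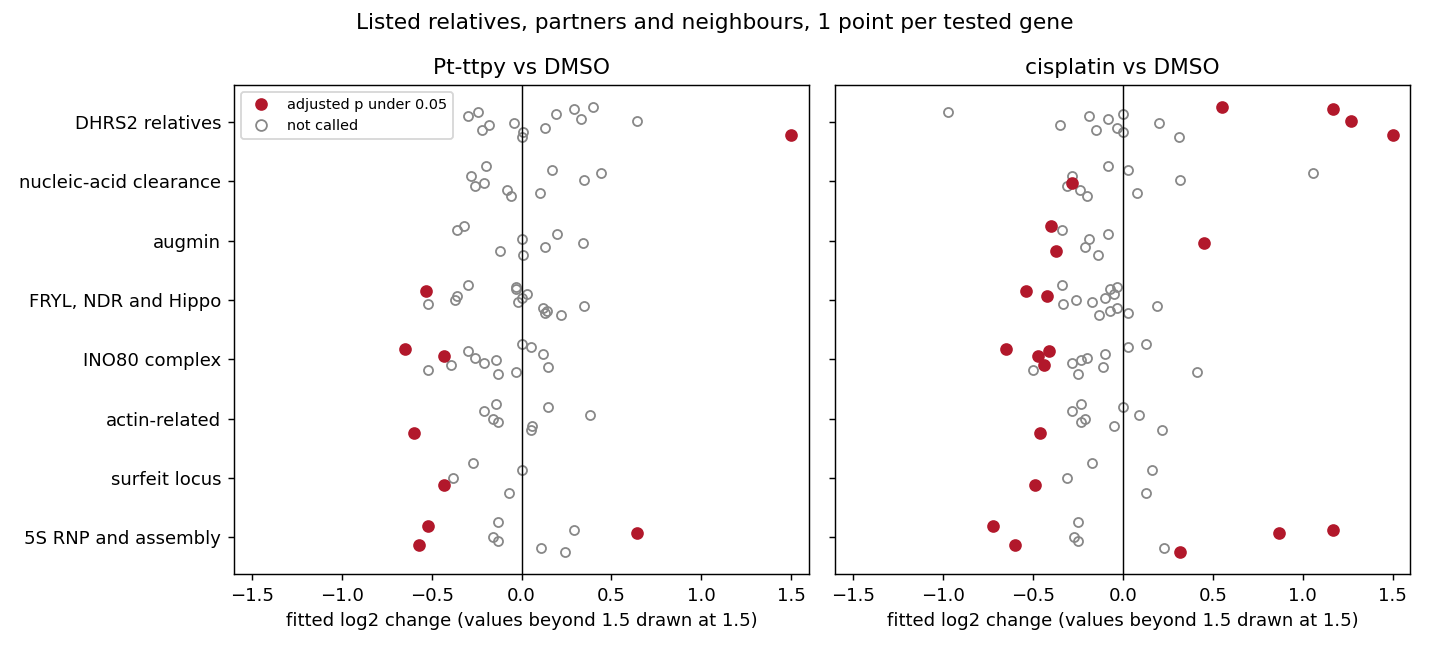
Fitted log2 change (horizontal axis) of the tested genes of 8 lists of paralogs, complex partners and neighbours of the 5 genes, for Pt-ttpy against DMSO and for cisplatin against DMSO. Filled points have an adjusted p under 0.05, and DHRS3, at 4.02 and 5.48, is drawn at the edge. Most points are open and lie within 0.5 of 0, with 9 filled genes with Pt-ttpy and 20 with cisplatin, of which those in more than 1 list appear more than once.

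Most genes next to the members on the chromosome were not called, as was so for all genes tested. Of the 20 nearest tested genes, 2 on either side of each member, 1 was called with Pt-ttpy (SURF4), beside 12.0% of all genes. With cisplatin 3 were called (SURF4, CCNQ and FAM83D), beside 20.5% of all genes. The medians were -0.12 and -0.11. CCNQ, a cyclin, lies 117332 bases from TREX2 and fell with cisplatin (-0.62, adjusted p = 0.0229; -0.55 and 0.0501 with Pt-ttpy). FAM83D, a spindle protein, lies 153792 bases from ACTR5 and fell with cisplatin (-0.39, 0.0237; -0.27 and 0.111 with Pt-ttpy). BRCA2, 16352 bases beyond FRY, was not called (0.11, 0.87; -0.33, 0.568). AP1G2, 62045 bases before DHRS2, was not called (-0.22, 0.403; -0.17, 0.508). These neighbours were taken by position, in a step added after the files were seen, and those named were picked after their values were seen. The calls of CCNQ and FAM83D were not examined with libraries left out.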

How the data were processed

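RNA libraries of A2780 cells were prepared with a SMARTER mRNA-Seq kit, per the labels' protocols. The values are gene counts deposited by the authors, and GRCh38 is the genome build that the submitters' processing notes name. For the aligner, the counter and the use of strand, the answer is not given in the sources used here. Counts were fitted with edgeR 4.0.16 (R 4.3.3): filterByExpr with a minimum count of 10, TMM factors, the robust quasi-likelihood test, 1 mean per group over all 9 libraries, a prior count of 0.125 for fold changes, and Benjamini-Hochberg adjustment over 15558 genes with a threshold of 0.05. SE is the log2 change divided by the root of F. The fit was tested on simulated data. Exon overlaps and positions come from GENCODE 29 and promoters from RefSeq (GRCh38.p14). Counting error limits the precision of genes with few counts.

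The members and lists were chosen with earlier results of these data known, so member changes carry no p. Beyond the members, the text names up to 3 called genes per list and contrast with the smallest adjusted p, a fixed set of partners (HAUS7, SURF1, SURF4, SURF6, RPL7A, MED22, DHRS4, DHRS4L2, TREX1, FRYL, INO80, ACTR8, RUVBL1, RUVBL2, MDM2), and 3 genes per member by likeness. Some genes that this rule names are not reported here. NFRKB, RPL5, RPL11, MYB, STK38 and STK38L fall outside this rule and were named after their values were seen. DESeq2 1.42.0, limma 3.58.1, other scalings, no filter, fewer libraries and a replicate block were tried as alternatives. No pair of libraries of the same group had values within sampling noise of each other, and pairs across groups were not checked.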

Additional observations from a re-analysis of the deposited data

How the results depend on the processing

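All 5 members kept their direction against DMSO under the 9 alternatives that left out 1 library and the 9 others. With DMSO 2 and cisplatin 2 left out, TREX2 had -1.39 with Pt-ttpy and SURF2 -0.69 with cisplatin. With library totals ACTR5 had -1.15 with cisplatin. Leaving out 1 library gave TREX2 -2.29 to -1.39 with Pt-ttpy and -1.79 to -0.88 with cisplatin. For Pt-ttpy against cisplatin DHRS2 ranged from -0.04 to 0.31 and turned to -0.04 without cisplatin replicate 1. The cause was not tested.

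Counts of called genes moved more. Against 1874 genes and 9 relatives for Pt-ttpy and DMSO, the 7 libraries gave 5189 and 31, and the DESeq2 Wald test 2853 and 15. Leaving out 1 library gave 185 to 3004 and 1 to 17, with the lowest counts without a Pt-ttpy library (267, 185 and 299). Against 3190 genes and 20 relatives for cisplatin and DMSO, the 6 libraries of the contrast gave 1313 and 8, and upper-quartile factors 13 relatives. Leaving out 1 library gave 2012 to 3100 and 12 to 18. Against 80 genes and 1 relative for Pt-ttpy and cisplatin, the 7 libraries gave 813 and 3, and DESeq2 253 genes. Leaving out 1 library gave 18 to 155 and 0 to 1. The replicate block gave 2539, 3712 and 140 genes, and 13, 22 and 1 relatives, in that order of contrasts. Libraries with the same number correlated between -0.038 and 0.191 in their deviations from group means, and the main fit did not take the numbers as pairs. Between DMSO and cisplatin the same-number values were 0.082, 0.191 and 0.063, above those of different numbers (-0.126 to 0.058). With Pt-ttpy the same-number values (-0.038 to 0.045) lay within those of different numbers (-0.068 to 0.068). Whether DMSO and cisplatin replicates of 1 number share a source was not tested. DHRS2 and TREX2, with 54 to 442 counts a library, have the largest SE of the 5 members.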
